A study of Homo sapiens with 6 samples.

Results

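The genes of the autophagy machinery, together with the transcription factors of the TFEB family, were followed in p53 KO and p53 WT cells. The 38 members were chosen by gene symbol. Of these, 37 had a row among the 55882 rows of the deposited count table and 36 passed the filter on low counts. ATG101, a subunit of the initiation complex, had no row under that symbol. MAP1LC3A, an LC3 gene, was too low to be tested.

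Messenger RNA was sequenced from DIvA cells, which descend from U2OS, a human osteosarcoma line. DIvA cells carry the DNA-cutting enzyme AsiSI in a form that reaches the nucleus after 4-hydroxytamoxifen (4-OHT) is given. The p53 KO group had 3 libraries of p53 knockout cells, and the p53 WT group had 3 libraries from cells with wild-type p53. All 6 libraries came from cells that had received 300 nM 4-OHT for 5 h, so each difference is between genotypes under 4-OHT, and untreated cells were not analysed here. Separate cultures are not stated for the replicates, nor is the number of knockout clones, so p-values measure only the spread between these samples, which may be technical.

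Autophagy encloses part of the cytoplasm in a double membrane, the autophagosome, and delivers it to the lysosome. A kinase complex around ULK1 starts the process, a lipid kinase complex around PIK3C3 marks the forming membrane, ATG2, ATG9 and WIPI proteins supply and organise its lipids, and a ubiquitin-like conjugation system attaches LC3 and GABARAP proteins to it. Receptors such as SQSTM1 tie cargo to LC3, and TFEB, TFE3 and MITF switch on genes of autophagy and lysosomes. The p53 protein is a transcription factor that DNA damage stabilises, and several of its known targets act on autophagy.

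Total counts ranged over libraries from 20393909 to 72621732 in p53 KO cells and from 24347609 to 79767519 in p53 WT cells. The p53 target CDKN1A, which blocks the cell cycle, had 49.1, 41.8 and 46.5 CPM (counts scaled to library size with TMM factors) in p53 KO cells, against 572, 521 and 533 CPM in p53 WT cells. MDM2, the p53 ubiquitin ligase and target, averaged 57.6 ± 13.3 CPM in p53 KO cells and 221 ± 29.6 CPM in p53 WT cells (SD, n = 3 each). Both targets followed the labels. Of the marker lists, mesenchymal and osteosarcoma genes summed to 3434 to 3852 CPM in p53 KO libraries. In p53 WT libraries they summed to 5328 to 5943 CPM. VIM, SPARC and COL1A1 were high and COL1A2 was near 0. VIM averaged 1618 CPM in p53 KO cells and 3333 CPM in p53 WT cells. COL1A1 went the other way, at 930 CPM in p53 KO cells and 688 CPM in p53 WT cells. RUNX2 and ALPL were low, at 7.26 and 1.66 CPM in p53 KO cells and 11.7 and 7.49 CPM in p53 WT cells. Epithelial markers summed to 11.4 to 15.2 CPM in p53 KO libraries and 6.53 to 10.1 CPM in p53 WT libraries, and leukocyte markers to 4.81 to 6.43 CPM in p53 KO libraries and 12.7 to 15.1 CPM in p53 WT libraries. Most of the leukocyte sum was CD68. Endothelial markers summed to at most 3.29 CPM in any library. Melanocyte markers, a cell type known for MITF, summed to 13.3 to 19.4 CPM in p53 KO libraries and 8.91 to 12.7 CPM in p53 WT libraries. Most of that sum was PMEL, at a mean of 14.3 CPM in p53 KO cells and 9.85 CPM in p53 WT cells. MLANA averaged 1.19 CPM in p53 KO cells and 0.936 CPM in p53 WT cells, and TYR and DCT were near 0. The part of these marker differences in the results on members was not tested.

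The promoters shown are those of 4 members. ATG14 and ATG3 are the members whose window holds CACGTG, the core of the motif bound by TFEB family proteins. VMP1 fell and OPTN rose, and both kept their calls in all 15 alternative analyses. Each line gives the 250 bases before the start of the gene in RefSeq, build GRCh38.p14, read 5′ to 3′ along the gene's strand, with CACGTG in capitals. The windows are chr14:55411831-55412080 on the minus strand for ATG14, chr3:112561963-112562212 on the minus strand for ATG3, chr17:59707404-59707653 on the plus strand for VMP1 and chr10:13099832-13100081 on the plus strand for OPTN.
ATG14: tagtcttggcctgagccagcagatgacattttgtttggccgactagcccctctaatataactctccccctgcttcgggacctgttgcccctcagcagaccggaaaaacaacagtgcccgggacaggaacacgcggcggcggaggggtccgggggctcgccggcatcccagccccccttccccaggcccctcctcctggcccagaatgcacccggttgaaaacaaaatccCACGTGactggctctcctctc
ATG3: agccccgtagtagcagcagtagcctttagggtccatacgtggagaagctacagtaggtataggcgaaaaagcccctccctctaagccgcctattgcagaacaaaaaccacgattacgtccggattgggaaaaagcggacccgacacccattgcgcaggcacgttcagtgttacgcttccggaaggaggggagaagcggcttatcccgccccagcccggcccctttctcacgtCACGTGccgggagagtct
VMP1: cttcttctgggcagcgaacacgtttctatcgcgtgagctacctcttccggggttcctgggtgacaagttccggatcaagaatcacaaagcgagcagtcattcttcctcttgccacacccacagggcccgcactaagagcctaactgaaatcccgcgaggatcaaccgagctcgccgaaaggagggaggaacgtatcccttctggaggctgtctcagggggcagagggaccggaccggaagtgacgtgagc
OPTN: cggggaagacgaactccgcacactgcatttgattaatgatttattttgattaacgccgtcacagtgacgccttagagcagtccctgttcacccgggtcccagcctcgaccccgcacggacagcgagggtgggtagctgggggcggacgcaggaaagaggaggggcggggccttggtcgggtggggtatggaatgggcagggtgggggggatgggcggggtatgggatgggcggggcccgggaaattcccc
The motif begins 21 bases before the start of ATG14 and 18 bases before that of ATG3. Promoter windows were matched by symbol for 33 members. A single window was kept per symbol, so other starts of a gene were not searched. CACGTG, which reads the same on both strands, was in 2 of 33 member windows (6.06%) and in 1772 of all 27305 windows (6.49%). Neither the palindromic CLEAR element of 10 bases nor its inner 8 bases, TCACGTGA, was found in a member window. Both contain CACGTG, and they were in 0.330% and 0.890% of all windows. The p53 response element, searched by its published consensus with a spacer of up to 13 bases, was in no member window. It was in 8 of all windows (0.0293%). With shares this low for it and for the CLEAR element, a match among 33 windows was unlikely for any genes. Their absence therefore does not set the members apart, and sequence outside these 250 bases was not searched.

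Among the members, autophagy RNAs moved in both directions in p53 KO cells. The RNAs of the LC3 gene MAP1LC3B, the GABARAP gene GABARAPL2 and the receptor gene OPTN rose, while those of VMP1, ATG2B, WIPI1, ATG16L1 and ATG14 fell. The calls of GABARAPL2, ATG2B and ATG14 were lost once the median change of neighbouring genes was taken off, and the log2 fold change of ATG14 was then -0.06. None of the 4 tested initiation genes passed the threshold, an adjusted p under 0.05 in edgeR's quasi-likelihood test over 22352 genes. All 6 genes for lipid transfer and membrane and all 3 of the TFEB family did, where 35.2% of genes at 2 CPM or more passed. With the median change of neighbouring genes taken off, 3 of those 6 and 0 of those 3 kept their calls. In this bulk RNA, fewer cells expressing a gene and less of its RNA per cell cannot be told apart.

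In all, 15 of 36 tested members (41.7%) passed the threshold, where 26.5% of all genes tested did. As all 36 had a mean of at least 2 CPM, the nearer background is the 35.2% of 15124 genes at that level. By direction, 9 members (25.0%) rose, beside 12.1% of all genes tested and 15.8% of those at 2 CPM or more. The other 6 (16.7%) fell, beside 14.4% of all genes tested and 19.4% of those at 2 CPM or more. The groups of libraries did not overlap in CPM for 20 members, 13 with p53 KO above and 7 with p53 KO below, which is 55.6% beside 40.8% of all genes tested. The share among genes at 2 CPM or more was not computed, so the excess over that nearer background is not known. The median log2 ratio (log2 fold change, p53 KO over p53 WT as throughout) was 0.09 over the members and 0.01 over all genes tested.

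**Figure D1:**
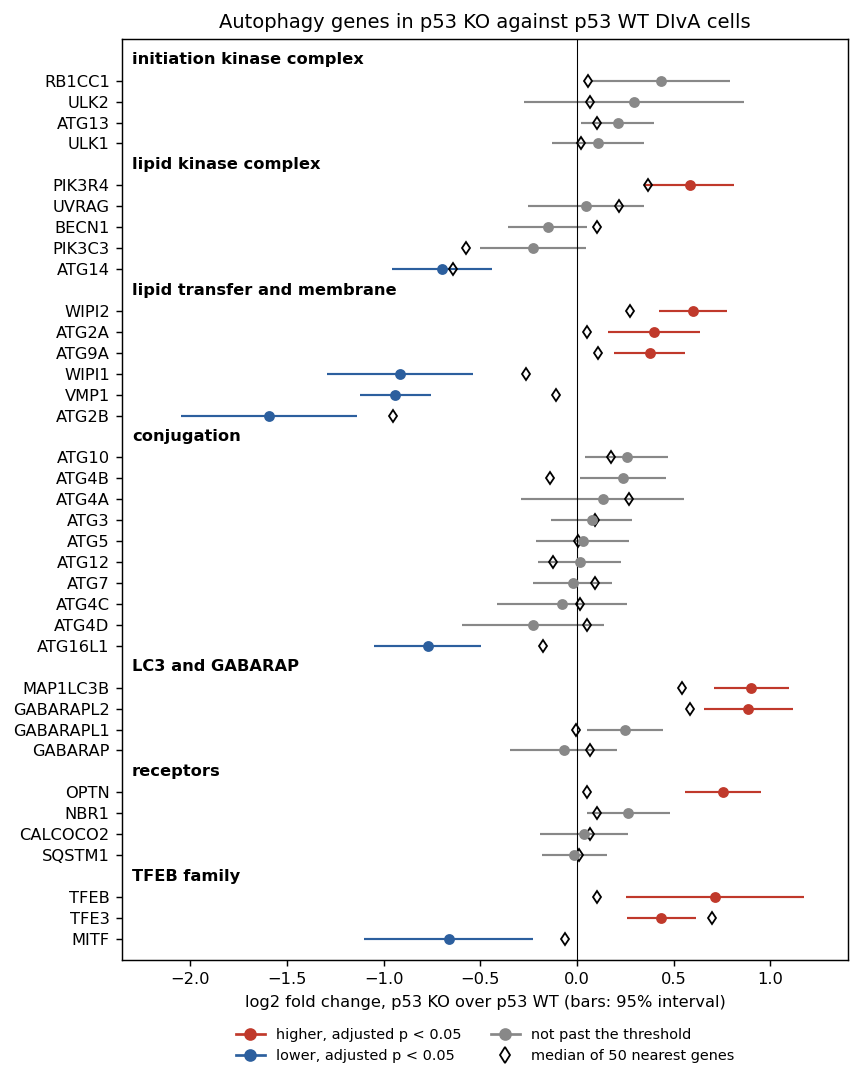
Log2 fold change of the 36 tested members, p53 KO over p53 WT (horizontal axis), grouped by role. Bars are 95% intervals from the SE and a normal quantile, narrower than edgeR's F-test implies. An open diamond gives the median of the 50 nearest expressed genes on the chromosome. Red points rose, blue points fell and grey points did not pass the threshold, and the spread runs from -1.59 for ATG2B to 0.90 for MAP1LC3B.

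The initiation kinase complex phosphorylates the proteins that build the membrane. Its 4 tested genes had log2 fold changes of 0.11 to 0.43 with adjusted p of 0.101 to 0.579 (edgeR). The largest was that of RB1CC1, which encodes the scaffold FIP200, with 92.5, 83.9 and 48.3 CPM in p53 KO cells, against 50.7, 57.8 and 58.7 CPM in p53 WT cells. Its p53 KO replicate 3 lay below every p53 WT library, so the groups overlapped. The log2 fold change was 0.43 (SE 0.18, adjusted p = 0.101), and it passed the threshold without that library. ATG13, the regulatory subunit, was the gene of this group whose libraries did not overlap, with 92.5 to 95.6 CPM in p53 KO cells and 78.1 to 85.3 CPM in p53 WT cells, at an adjusted p of 0.128.

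In the lipid kinase complex, which makes phosphatidylinositol 3-phosphate, 1 gene rose and 1 fell among 5. PIK3R4 encodes the regulatory subunit VPS15. It had 60.6, 58.5 and 50.9 CPM in p53 KO cells, against 34.1, 39.2 and 40.5 CPM in p53 WT cells. Every p53 KO library was above every p53 WT library, with a log2 ratio of 0.58 (SE 0.12, adjusted p = 0.00206). ATG14, whose protein directs the complex to autophagy, had 17.5, 17.0 and 17.6 CPM in p53 KO cells, against 25.6, 28.1 and 31.0 CPM in p53 WT cells. The groups were apart, and the log2 fold change was -0.70 (SE 0.13, adjusted p = 0.00123). Its promoter is printed above. The catalytic gene PIK3C3 had a log2 ratio of -0.23 (SE 0.14, adjusted p = 0.274), the largest in size of the 3 that did not pass, with UVRAG and BECN1 the others. BECN1, the gene of the core subunit Beclin 1, had 56.8 to 58.1 CPM in p53 KO cells and 59.4 to 69.5 CPM in p53 WT cells.

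All 6 genes for lipid transfer and membrane passed the threshold, 3 in each direction, and paralogs moved oppositely. ATG2A and ATG2B encode lipid channels to the growing membrane. ATG2A had 44.2, 43.5 and 49.2 CPM in p53 KO cells, against 35.5, 30.5 and 37.9 CPM in p53 WT cells. ATG2B had 6.63, 4.30 and 4.11 CPM in p53 KO cells, against 12.5, 14.5 and 19.2 CPM in p53 WT cells. Neither gene's groups overlapped. The log2 fold change was 0.40 for ATG2A (SE 0.12, adjusted p = 0.0249) and -1.59 for ATG2B (SE 0.23, adjusted p = 0.000169), the largest in size of all tested members. Without p53 WT replicate 1 or 2, ATG2A did not pass.

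WIPI1 and WIPI2 encode readers of phosphatidylinositol 3-phosphate, and WIPI2 recruits ATG16L1. WIPI1 had 8.59, 7.64 and 5.66 CPM in p53 KO cells, against 15.3, 13.7 and 12.6 CPM in p53 WT cells. WIPI2 had 275, 271 and 296 CPM in p53 KO cells, against 188, 188 and 178 CPM in p53 WT cells. Both were apart between the groups, WIPI1 with p53 KO below and WIPI2 with p53 KO above. Their log2 fold changes were -0.91 (SE 0.19, adjusted p = 0.00271) and 0.60 (SE 0.09, adjusted p = 0.000194). WIPI1 shares 828 bases of exon with ARSG on the opposite strand, and ARSG had a log2 ratio of -0.70 (adjusted p = 0.0563). The strand setting of the count is not given in the sources used here.

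ATG9A, the gene of a lipid scramblase on vesicles that seed the membrane, had 103, 101 and 103 CPM in p53 KO cells, against 80.8, 77.3 and 78.2 CPM in p53 WT cells. The p53 KO libraries were all higher, with a log2 ratio of 0.38 (SE 0.09, adjusted p = 0.00814), and the call was lost without p53 WT replicate 2. VMP1, the gene of a scramblase of the endoplasmic reticulum, had 108, 98.1 and 97.4 CPM in p53 KO cells, against 201, 193 and 188 CPM in p53 WT cells. Every p53 KO library was far below every p53 WT library, and the log2 fold change was -0.94 (SE 0.09, adjusted p = 5.92e-06), the smallest adjusted p of the members. VMP1 shares 162 bases of exon with PTRH2 on the opposite strand, which had a log2 ratio of -0.42 (adjusted p = 0.00741).

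**Figure D2:**
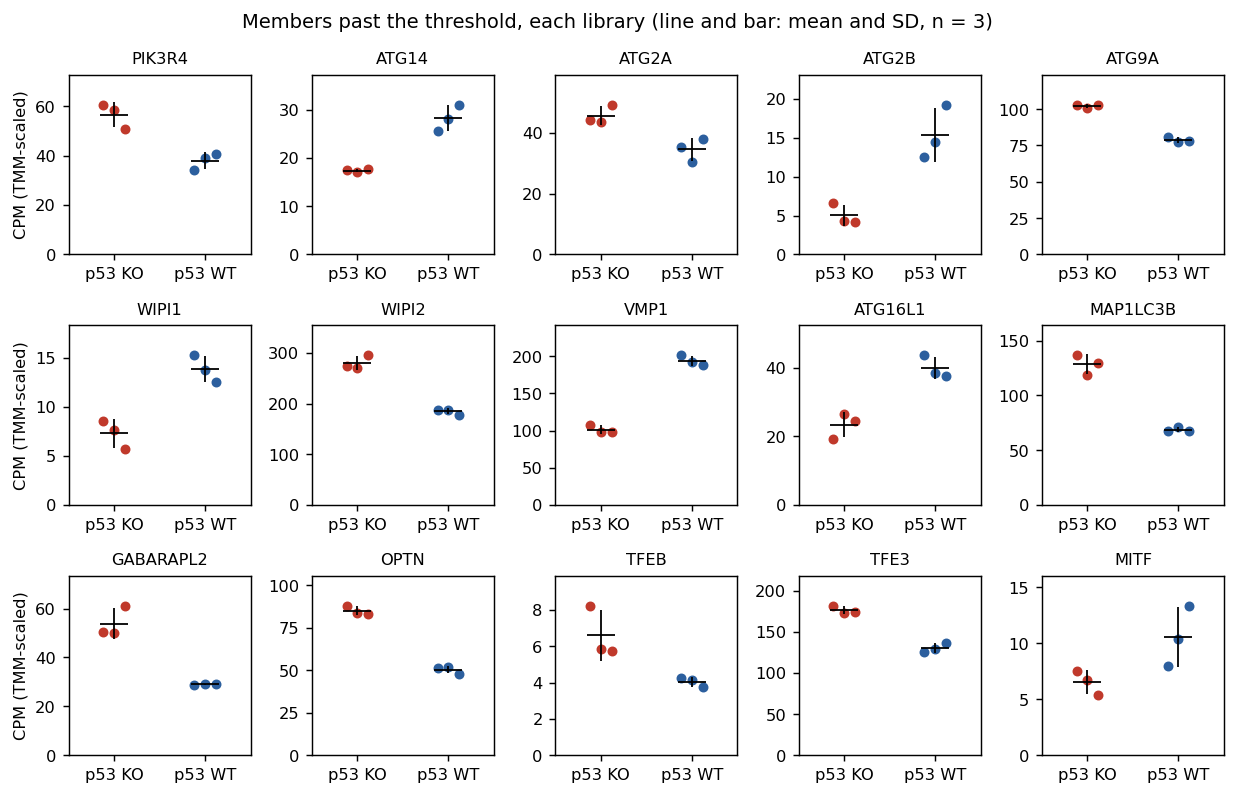
CPM scaled with TMM factors (vertical axis from 0) in each of the 3 p53 KO and 3 p53 WT libraries for the 15 members past the threshold, with mean and SD. In each of the 15 panels the p53 KO and p53 WT points do not overlap, with 97.4 to 108 CPM in p53 KO and 188 to 201 CPM in p53 WT for VMP1, and a narrow gap between 7.57 CPM in p53 KO and 7.96 CPM in p53 WT for MITF.

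Of the conjugation genes, ATG16L1 was the gene among 10 that passed. Its protein, with the ATG5 and ATG12 conjugate, sets where LC3 is attached. ATG16L1 had 19.2, 26.5 and 24.6 CPM in p53 KO cells, against 43.6, 38.6 and 37.5 CPM in p53 WT cells. The groups were apart, with a log2 ratio of -0.77 (SE 0.14, adjusted p = 0.000933). The other 9 genes, those of the enzymes ATG3, ATG7 and ATG10, the proteases ATG4A to ATG4D, and ATG5 and ATG12, had log2 fold changes of -0.23 to 0.26 and adjusted p of 0.106 to 0.948 (edgeR). ATG10 had the largest, 0.26 (SE 0.11), with 614, 544 and 661 CPM in p53 KO cells, against 584, 481 and 456 CPM in p53 WT cells, which overlap. It passed the threshold without p53 WT replicate 1. ATG10 shares 374 bases of exon with the ribosomal protein gene RPS23 on the opposite strand, which averaged 727 ± 95.2 CPM in p53 KO cells and 603 ± 73.3 CPM in p53 WT cells. The level of ATG10 as its own gene is therefore uncertain. ATG4B, the main LC3 protease gene, had 52.96 to 66.31 CPM in p53 KO cells and 47.68 to 51.03 CPM in p53 WT cells, at an adjusted p of 0.152.

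LC3 and GABARAP proteins become bound to lipid on the autophagosome. MAP1LC3B had 137, 119 and 130 CPM in p53 KO cells, against 67.2, 71.1 and 67.8 CPM in p53 WT cells. GABARAPL2 had 50.47, 49.98 and 61.15 CPM in p53 KO cells, against 28.91, 29.02 and 29.35 CPM in p53 WT cells. In both genes the lowest p53 KO library was well above the highest p53 WT library. The log2 fold changes were 0.90 for MAP1LC3B (SE 0.10, adjusted p = 1.42e-05) and 0.89 for GABARAPL2 (SE 0.12, adjusted p = 7.72e-05). GABARAPL1 did not pass, at 0.25 (SE 0.10, adjusted p = 0.0893), with 63.7 to 65.1 CPM in p53 KO cells and 52.6 to 57.0 CPM in p53 WT cells. GABARAP had a log2 ratio of -0.07 (SE 0.14, adjusted p = 0.777), and its groups overlapped. MAP1LC3A had 8, 6 and 0 counts in p53 KO libraries and 0, 0 and 2 counts in p53 WT libraries. Its groups overlapped, with means of 0.085 CPM in p53 KO cells and 0.027 CPM in p53 WT cells. With counts pooled over the libraries of each group the ratio was 8.83, with a 95% counting interval of 2.03 to 80.1. That interval leaves out the spread between libraries, so it does not show a difference between the groups.

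Per kilobase of exon in GENCODE 29, which is on another build than the counts, GABARAP was the highest LC3 or GABARAP gene in both groups, at 38.2 ± 8.29 CPM per kb in p53 KO cells and 39.9 ± 4.03 CPM per kb in p53 WT cells. MAP1LC3B came next in p53 KO cells, at 24.2 ± 1.67 CPM per kb, and was at 12.9 ± 0.400 CPM per kb in p53 WT cells. GABARAPL2 had 17.8 ± 2.08 CPM per kb in p53 KO cells and 9.59 ± 0.0756 CPM per kb in p53 WT cells, and GABARAPL1 had 15.7 ± 0.172 CPM per kb in p53 KO cells and 13.3 ± 0.575 CPM per kb in p53 WT cells (SD, n = 3 each). The neighbours in this order whose means lay within their spread were GABARAPL2 and GABARAPL1 in p53 KO cells, and MAP1LC3B and GABARAPL1 in p53 WT cells. In the TFEB family, TFE3 was far above the others, at 41.2 ± 1.11 CPM per kb in p53 KO cells and 30.4 ± 1.35 CPM per kb in p53 WT cells. TFEB had 1.17 ± 0.251 and MITF 0.92 ± 0.151 CPM per kb in p53 KO cells, against 0.71 ± 0.0465 and 1.47 ± 0.377 CPM per kb in p53 WT cells.

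**Figure D3:**
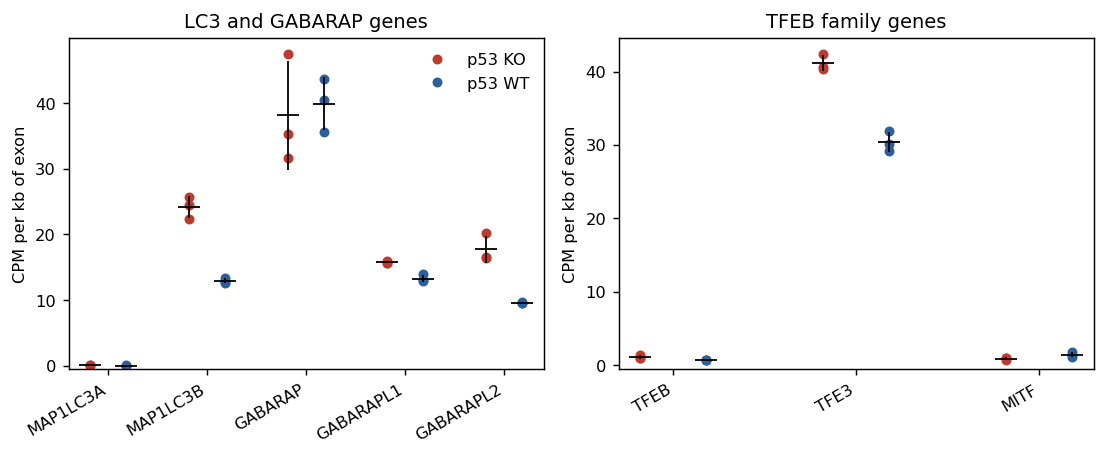
Level per length, in CPM per kb of exon (vertical axis), of the LC3 and GABARAP genes and of the TFEB family genes in each p53 KO and p53 WT library, with mean and SD (n = 3 each). GABARAP and TFE3 stand highest in their panels, MAP1LC3B and GABARAPL2 are higher in p53 KO than in p53 WT, and MAP1LC3A lies near 0.

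Of the receptors, which tie cargo to LC3 and GABARAP, OPTN was the gene among 4 that passed. OPTN, known in the clearance of mitochondria and bacteria, had 88.0, 83.8 and 83.3 CPM in p53 KO cells, against 51.5, 51.7 and 47.9 CPM in p53 WT cells. The groups were far apart, with a log2 ratio of 0.76 (SE 0.10, adjusted p = 7.17e-05). SQSTM1, the gene of the ubiquitin receptor p62, had 425, 471 and 433 CPM in p53 KO cells, against 457, 433 and 450 CPM in p53 WT cells. Those groups overlapped, and the log2 fold change was -0.01 (SE 0.09, adjusted p = 0.938), with a 95% interval of -0.18 to 0.16. NBR1, a related ubiquitin receptor gene, was the largest that did not pass, at 0.27 (SE 0.11, adjusted p = 0.0943), with 78.7 to 96.9 CPM in p53 KO cells and 66.6 to 76.3 CPM in p53 WT cells. NBR1 passed without p53 KO replicate 3. CALCOCO2, which encodes NDP52, was at 0.04 (adjusted p = 0.86).

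In the TFEB family, TFEB and TFE3 rose and MITF fell, and TFE3 kept its call through every left-out library. With the median change of its chromosomal neighbours taken off, as described further on, TFE3 turned to -0.26 (adjusted p = 0.0504 by edgeR). TFE3, the most abundant, had 182, 173 and 174 CPM in p53 KO cells, against 125, 129 and 137 CPM in p53 WT cells. The p53 KO libraries were all higher, with a log2 ratio of 0.44 (SE 0.09, adjusted p = 0.00245). TFEB, the factor best known for lysosomal genes, had 8.23, 5.84 and 5.71 CPM in p53 KO cells, against 4.25, 4.12 and 3.74 CPM in p53 WT cells. MITF, the melanocyte factor of the family, had 7.57, 6.74 and 5.41 CPM in p53 KO cells, against 7.96, 10.4 and 13.4 CPM in p53 WT cells. Both sets of groups were apart, MITF by a narrow margin. The log2 fold changes were 0.71 for TFEB (SE 0.23, adjusted p = 0.0366) and -0.66 for MITF (SE 0.22, adjusted p = 0.0409). The call of TFEB was lost without p53 KO replicate 1 and without each p53 WT replicate, and that of MITF without p53 KO replicate 2 or 3 and without p53 WT replicate 2 or 3. MITF also did not pass with no composition factors or in limma-voom. The authors' deposited table gave 14 members an adjusted p under 0.05, of which 13 are among the 15 here. In the authors' deposited table TFEB (0.166) and MITF (0.0616) did not pass on adjusted p, and ATG13 (0.0240) did.

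Genes that lie near each other on a chromosome moved together for several members, as measured by the median log2 ratio of the 50 nearest protein-coding genes that averaged 2 CPM or more. This median was over 0.2 in size for 8 of the 15 members that passed and for 3 of the 21 that did not. The same shares over all genes tested were not computed, so whether this is particular to the members is not known. Around MAP1LC3B and GABARAPL2, both on chromosome 16, it was 0.55 and 0.59. Around ATG14 and ATG2B, both on chromosome 14, it was -0.64 and -0.95. Around TFE3 on chromosome X it was 0.70, more than the log2 fold change of TFE3 itself.

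With that median taken off in the fit, 7 members passed, 4 higher and 3 lower, where 22.4% of the 17093 genes that could be placed did, against 30.3% of those genes without it. VMP1, WIPI1, WIPI2, ATG16L1, MAP1LC3B and OPTN kept their calls, and ATG4B was added. The log2 fold change of VMP1 was then -0.83 (adjusted p = 2.2e-05), that of OPTN 0.70 (adjusted p = 0.000158) and that of MAP1LC3B 0.36 (adjusted p = 0.0167), all by edgeR. ATG14 was at -0.06 (adjusted p = 0.807) and PIK3R4 at 0.22 (adjusted p = 0.216). GABARAPL2 was at 0.30 (adjusted p = 0.084), ATG2B at -0.64 (adjusted p = 0.0616) and TFE3 turned to -0.26 (adjusted p = 0.0504). Calls were also lost for ATG2A at 0.35 (adjusted p = 0.0541) and ATG9A at 0.26 (adjusted p = 0.0542). So were those of TFEB at 0.61 (adjusted p = 0.0774) and MITF at -0.60 (adjusted p = 0.0689), all by edgeR. The order of genes is that of RefSeq (GRCh38.p14), and whether DNA copy number differs between the cells was not tested. In all, 14 members share exon sequence with another annotated gene that has a row. Among those not named above, MAP1LC3B shares 150 bases with FBXO31 on the opposite strand, which had a log2 ratio of 0.64. ATG2B shares 419 bases with GSKIP on the opposite strand, which averaged 6.48 ± 3.15 CPM in p53 KO cells and 13.1 ± 1.74 CPM in p53 WT cells.

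Other genes of the pathway were taken from lists. On a list of p53 targets and other p53-linked genes of autophagy, 9 of 12 genes fell and 1 rose. The median log2 fold change was -1.47. The share that fell was 75.0%, beside 14.4% of all genes tested and 19.4% of those at 2 CPM or more. The share that rose was 8.33%, beside 12.1% and 15.8% of the same. TP53INP1, which encodes a protein that binds LC3, averaged 2.77 ± 0.441 CPM in p53 KO cells and 22.8 ± 3.91 CPM in p53 WT cells, a log2 fold change of -3.06. SESN2, a stress sensor gene upstream of mTORC1, averaged 16.4 ± 2.46 CPM in p53 KO cells and 78.2 ± 5.94 CPM in p53 WT cells. BBC3, a cell death gene, averaged 8.48 ± 1.52 CPM in p53 KO cells and 43.3 ± 2.86 CPM in p53 WT cells (SD, n = 3 each). Of these 12 genes 6, and of the 37 members 0, were marked in the authors' deposited table as intersecting a p53 cistrome, a mark on 124 of its 35987 rows. The 12 genes were listed for their known links to p53. With marks this rare, 0 among 37 members says little about the members.

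In the nutrient and energy inputs, 5 of 33 genes fell and 1 rose, with a median log2 fold change of -0.03. The share that fell was 15.2%, beside 14.4% of all genes tested and 19.4% of those at 2 CPM or more. The share that rose was 3.03%, beside 12.1% and 15.8% of the same. The share that fell lies between these backgrounds, and the share that rose is below both. PRKAB2, a subunit gene of the energy sensor AMPK, averaged 45.5 ± 3.63 CPM in p53 KO cells and 101 ± 6.88 CPM in p53 WT cells, a log2 ratio of -1.15 (SE 0.11, adjusted p = 3.33e-06 by edgeR). RRAGA, a GTPase gene that brings mTORC1 to the lysosome, averaged 240 ± 23.9 CPM in p53 KO cells and 127 ± 14.1 CPM in p53 WT cells, a log2 ratio of 0.92 (SE 0.11). TSC2, an mTORC1 inhibitor gene, and RPTOR, an mTORC1 subunit gene, had log2 fold changes of -0.58 and -0.48, both past the threshold, but not with the local median taken off.

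Among further core autophagy genes, 5 of 24 rose (20.8%, beside 12.1% of all genes tested and 15.8% of those at 2 CPM or more) and 8 fell (33.3%, beside 14.4% and 19.4% of the same), with a median of -0.23. TECPR2 averaged 3.81 ± 0.435 CPM in p53 KO cells and 11.9 ± 0.683 CPM in p53 WT cells. PLEKHM1, whose protein links autophagosomes to lysosomes, averaged 28.2 ± 3.25 CPM in p53 KO cells and 49.1 ± 2.37 CPM in p53 WT cells. The LC3 gene MAP1LC3C had 159, 71 and 29 counts in p53 KO libraries and 4, 0 and 3 counts in p53 WT libraries (adjusted p = 0.000318 by edgeR). ATG9B, the paralog of ATG9A, averaged 3.12 ± 0.595 CPM in p53 KO cells and 0.524 ± 0.193 CPM in p53 WT cells. Of 19 further cargo receptors and adaptors, 3 rose and 2 fell (26.3%), with a median of -0.04. That share was near the 26.5% of all genes tested and below the 35.2% of those at 2 CPM or more. The mitophagy receptor gene FUNDC1 had a log2 fold change of 0.87, SEC62 of the endoplasmic reticulum one of 0.61 and the mitophagy receptor gene BNIP3 one of 0.44. BNIP3 did not pass without p53 WT replicate 3, nor did FUNDC1 and SEC62 with the local median taken off.

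Of 24 tested genes on a list of lysosomal TFEB targets, 7 fell and 2 rose, with a median of -0.23. Both directions together made 37.5%, beside 35.2% of all genes at 2 CPM or more. The share that fell was 29.2%, beside 14.4% of all genes tested and 19.4% of those at 2 CPM or more. The share that rose was 8.33%, beside 12.1% and 15.8% of the same. The 7 include TFEC, which encodes a transcription factor and not a lysosomal protein. TPP1, a lysosomal peptidase gene, averaged 47.3 ± 2.74 CPM in p53 KO cells and 70.4 ± 2.33 CPM in p53 WT cells. CLCN7, a lysosomal chloride transporter gene, averaged 24.3 ± 1.76 CPM in p53 KO cells and 43.5 ± 1.81 CPM in p53 WT cells, and ATP6V0D1, a proton pump subunit gene, averaged 63.8 ± 1.84 CPM in p53 KO cells and 38.9 ± 2.80 CPM in p53 WT cells. With the local median taken off, CLCN7 and ATP6V0D1 did not pass. TFEC, the fourth gene of the TFEB family, had 0 counts in p53 KO libraries and 32, 70 and 31 counts in p53 WT libraries, at least 35.1-fold lower with a floor of 3 counts over the group.

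**Figure D4:**
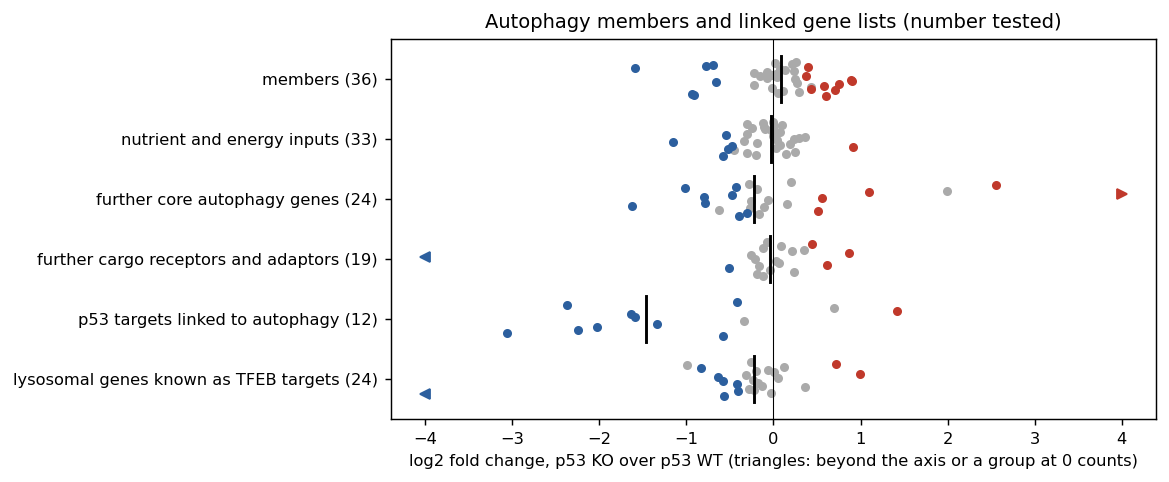
Log2 fold change, p53 KO over p53 WT (horizontal axis), of each tested gene of the autophagy members and of 5 linked lists, red for genes that rose, blue for those that fell and grey for the rest, with a black line at each median and triangles for values beyond the axis or with a group at 0 counts. The list labelled p53 targets linked to autophagy has a median of -1.47, and the medians of the members and the other lists lie between -0.23 and 0.09.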

How the data were processed

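RNA was measured in 6 libraries, 3 of p53 KO and 3 of p53 WT cells, grouped and numbered by their titles. The authors deposited raw counts per gene symbol. Per the submitters' processing notes, the tools were HISAT2 2.1.0, fastp 0.21.0 and DESeq2 1.3.6, on build GRCh37 (hg19). Which program and annotation gave the counts is not given in the sources used here. Their deposited comparison table holds a signal (the mean normalised count), a log2 fold change, a test score and a p-value. CDKN1A is positive there, at 3.54, so its sign was taken as p53 WT over p53 KO.

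The test was that of edgeR 4.0.16, run in R 4.3.3 (quasi-likelihood F-test, robust, TMM, filterByExpr), with Benjamini-Hochberg adjustment over 22352 genes and a threshold of 0.05, and the script was tested on simulated data. SE was derived from the F statistic, and 95% intervals of log2 fold changes were taken as that SE times a normal quantile. They are narrower than the F-test implies. ATG4B, with an unadjusted p of 0.0565 (edgeR), had an interval of 0.01 to 0.46. Lengths came from GENCODE 29, and gene order and promoters from RefSeq GRCh38.p14. The limit behind a count of 0 (3 counts) was 0.0376 to 0.147 CPM per library. The floor for TFEC and the counting interval for MAP1LC3A cover counting error only, and PCR copies are not separate molecules. No replicate copied another (chi-square per degree of freedom of at least 16.7).

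Members past the threshold were named with every library, as was the member with the largest change among the others of each role group, and of each linked list up to 4 genes with the smallest adjusted p. ATG13, BECN1, ATG4B, GABARAPL1, GABARAP, SQSTM1 and CALCOCO2 were also named after their values were seen. A few genes that this rule names are not reported here. The members and lists were chosen with earlier results of these data known. Tried as alternatives were DESeq2 1.42.0, limma-voom (limma 3.58.1), other composition factors (RLE, upper-quartile or none), other filters (none, or 1 CPM in 3 libraries), a replicate block, each library left out, and the local median taken off.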

Additional observations from a re-analysis of the deposited data

How the results depend on the processing

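Of 15 members past the threshold, 6 kept direction and call in all 15 alternatives and 11 in all but the local median. With the local median taken off, which could be done for 17093 genes, 3832 passed (5172 of the same number without it, and 5924 of all 22352), 4 members rose (9 otherwise), 3 fell (6 otherwise) and the median log2 fold change of members was 0.052 (0.09 otherwise); it was 0.13 under upper-quartile factors. Under that local setting PIK3C3 turned to 0.35, UVRAG to -0.17, ATG3 to -0.016, ATG4A to -0.14, CALCOCO2 to -0.032 and TFE3 to -0.26; the cause was not tested. Values near 0 also changed sign: ATG7 was 0.011 and SQSTM1 0.020 under upper-quartile factors, SQSTM1 was 0.0092 with no composition factors, and ATG12 was -0.0030 with no filter and -0.0096 in limma-voom. Leaving out each library in turn gave 4160 to 6059 genes, 6 to 11 members higher, 5 to 6 lower and a median of 0.070 to 0.14. The log2 fold changes that changed sign when a library was left out ranged from -0.063 to 0.14 for UVRAG, -0.0085 to 0.17 for ATG3, -0.044 to 0.092 for ATG5, -0.055 to 0.017 for ATG7, -0.055 to 0.078 for ATG12, -0.24 to 0.052 for GABARAP, -0.065 to 0.018 for SQSTM1 and -0.052 to 0.10 for CALCOCO2, and none of them passed with all 6 libraries. Those fits share 1 estimate of the spread between both groups.

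Same-numbered libraries did not deviate together (correlations of -0.0627, 0.160 and -0.239 over 12695 genes), so the numbers were not taken to pair the samples. Differently numbered libraries of the groups had correlations of -0.448 to 0.433, and a batch shared across numbers was not tested. With the replicate block 5159 genes, 8 members higher and 5 lower passed, the median was 0.095, and TFEB and MITF did not pass. Depth limits MAP1LC3A and TFEC, whose counts were at or near 0 in a group.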

Other observations

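A row under C12orf44, the older symbol of the initiation gene ATG101, averaged 59.7 ± 5.99 CPM in p53 KO cells and 55.9 ± 6.24 CPM in p53 WT cells (SD, n = 3 each), a log2 ratio of 0.09 (SE 0.12, adjusted p = 0.643 by edgeR). MAP1LC3B2, a near-identical copy of MAP1LC3B whose reads the count may have split, averaged 6.53 ± 2.16 CPM in p53 KO cells and 3.00 ± 0.329 CPM in p53 WT cells, a log2 ratio of 1.10 (adjusted p = 0.00792 by edgeR).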
